A study of Mus musculus with 8 samples.

Results

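Omp, Stoml3, Pde1c, Pde4a, Carns1, Umodl1 and Cartpt are genes of the mature olfactory sensory neuron that lie outside the core odorant transduction cascade. These 7 genes were taken by symbol from a table of 21765 genes measured in polysome RNA of the mouse main olfactory epithelium, and 7 of 7 were found. All 7 were among the 16097 genes tested, which had a mean of at least 1 TPM, a share of each library's transcripts corrected for transcript length.

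Cycloheximide, which holds ribosomes on their mRNAs, was present during dissection at 100 µg/mL, and lysates were separated on gradients into about 42 fractions. Fractions 27 to 34 formed the early (lighter) polysome pool and fractions 35 to 42 the late (heavier) pool. Wild-type (WT) mice were Mex3a flox/flox or Mex3a flox/+ without Cre, and conditional knockout (cKO) mice were Mex3a flox/flox with a Cre driver. There were 2 lysates per genotype, each giving 1 early and 1 late library, so that 4 groups of 2 libraries were compared. The labels give no age, sex, number of animals per lysate or statement that lysates came from separate animals, so the spread between lysates may be technical. For replicate 2 of WT early, 1 label names the cKO genotype while the title says WT, and it was kept as WT. The series' design text describes sorted cells with transgenes driven by gg8-tTA and OMP-tTA, which no label of these 8 libraries names.

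Olfactory sensory neurons are renewed throughout life from basal cells, and a neuron is called mature once it expresses a receptor, grows cilia and turns on Omp. Odorants raise cyclic AMP (cAMP) in the cilia, which opens a cation channel. Of the 7 genes, 2 encode enzymes that break down cAMP and 1 a ciliary membrane protein. The others encode an abundant cytosolic protein, an enzyme that makes a dipeptide, an extracellular domain protein and a neuropeptide precursor. A polysome is an mRNA with several ribosomes on it, and a longer reading frame can carry more ribosomes, so that position on the gradient depends on coding length as well as on how densely ribosomes are loaded.

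The 7 reading frames differ about as much in length as in function. In GENCODE M21 on GRCm38 (the assembly also called mm10, the build in the submitters' processing notes), the principal transcripts code for 351 nt in Cartpt, 492 in Omp, 864 in Stoml3, 2121 in Pde1c, 2535 in Pde4a, 2844 in Carns1 and 4047 in Umodl1, stop codon included. The first 300 coding bases of Omp and Cartpt are shown because these are the shortest tracks for ribosomes among the 7, and 300 bases are most of either. Capitals mark the start codon.
Omp: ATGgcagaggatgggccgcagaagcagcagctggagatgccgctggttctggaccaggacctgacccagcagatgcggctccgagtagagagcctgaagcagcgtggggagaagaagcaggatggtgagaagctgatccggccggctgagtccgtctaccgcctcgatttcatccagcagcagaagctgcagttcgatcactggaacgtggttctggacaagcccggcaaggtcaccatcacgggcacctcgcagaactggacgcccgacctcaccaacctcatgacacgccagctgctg
Cartpt: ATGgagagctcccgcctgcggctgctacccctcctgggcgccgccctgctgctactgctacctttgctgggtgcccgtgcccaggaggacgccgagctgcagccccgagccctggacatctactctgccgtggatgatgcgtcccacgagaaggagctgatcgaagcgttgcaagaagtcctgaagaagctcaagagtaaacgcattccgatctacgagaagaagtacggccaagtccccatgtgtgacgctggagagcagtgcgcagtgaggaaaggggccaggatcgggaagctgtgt

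The bases around each start codon are shown as the place where a scanning ribosome begins. Each window of 22 bases holds 10 bases before the start codon, the codon and 9 bases after it. Capitals mark the start codon, position -3 before it and position 4, the first base after it.
Omp: cacttggGccATGGcagaggat
Stoml3: caagaatGagATGGattcaccg
Pde1c: acctgcaGctATGGagtctcca
Pde4a: agcgggaGccATGGagcctccg
Carns1: tacctccAagATGCtctgcctg
Umodl1: ccaccacGggATGAtgtccagg
Cartpt: gtccagaAccATGGagagctcc
All 7 genes had a purine at position -3, as did 86.1% of 13884 tested genes with a complete coding transcript. G followed the start codon in 5 of 7, against 52.5% of those genes, and both features were present in 5 of 7, against 45.0%. Carns1 and Umodl1 lacked the G. These letters are a description and were not tested against the polysome values.

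Library quality and the targeted gene were examined first. TPM states no depth, but values stepped in whole multiples, from which 7776792 to 12771079 reads per library were inferred. Mex3a, an RNA-binding protein gene on chromosome 3 at 88532395 to 88541396, measured 97.4 and 115.6 TPM early and 93.2 and 95.6 TPM late in WT lysates 1 and 2. The cKO lysates gave 13.9 and 19.8 TPM early against 11.1 and 13.8 TPM late. All 4 libraries titled cKO were below all 4 titled WT, and the library with the conflicting label was the one at 115.6 TPM, the highest of the 8. Mex3a was lower in cKO by limma, at -2.55 log2 in early (SE 0.18, adjusted p = 0.00457) and -2.79 in late polysomes (SE 0.18, adjusted p = 0.00282). It lost the call when either WT library of the pool was left out (adjusted p = 0.0501 and 0.0804 early, 0.0901 and 0.0945 late).

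The levels of the 7 genes spanned a wide range, as TPM, which is per length. Over the 8 libraries Omp had a mean of 3618 TPM (2439 to 5393) and ranked 14 among the 16097 tested genes. Stoml3 followed at 2694 TPM (1848 to 3539), rank 23. The ranges of Omp and Stoml3 overlapped, but in each of the 8 libraries Stoml3 was below Omp, at 65.6% to 85.7% of it. Then came Cartpt at 329.9 TPM (184.4 to 487.9), Pde4a at 173.8 (144.1 to 210.6), Umodl1 at 165.7 (54.9 to 261.0), Carns1 at 74.3 (41.7 to 99.7) and Pde1c at 56.3 (36.4 to 75.5). The ranges of Cartpt, Pde4a and Umodl1 overlapped, and their order depended on the pool. Those of Carns1 and Pde1c overlapped too, but Carns1 was above Pde1c in each of the 8 libraries. These values rested on 13738 to 54123 inferred reads per library for Omp and on at least 435 for each of the others.

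**Figure D1:**
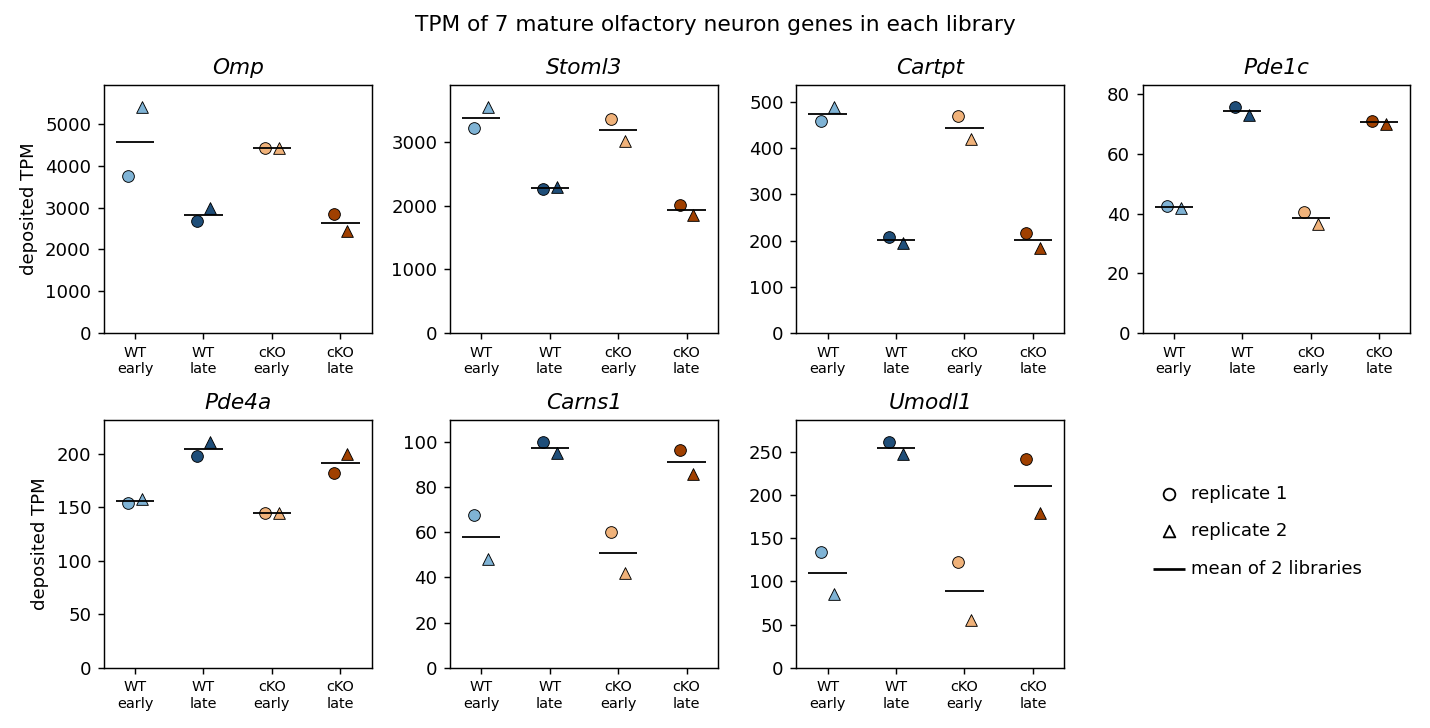
Deposited TPM (vertical axes, from 0) of each of the 7 genes in each of the 8 libraries, by genotype and polysome pool. Circles are replicate 1, triangles replicate 2 and lines the mean of 2 libraries. Omp, Stoml3 and Cartpt are lower in late than in early libraries and the other 4 genes higher, with no overlap between pools in any gene, and within both pools WT and cKO libraries overlap for Omp, Carns1 and Cartpt.

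The comparison of late with early polysomes asked where each mRNA lies on the gradient. Omp, Stoml3 and Cartpt fell in late polysomes, and Pde1c, Pde4a, Carns1 and Umodl1 rose. All 7 passed an adjusted p of 0.05 in the average over genotypes, where 68.9% of all tested genes passed, 34.3% higher and 34.6% lower. The median change was 0.28 log2 over the 7 genes and -0.01 over all tested genes. A count of 7 is therefore not far from what most genes did, and the sizes and directions carry the description. In each of the 7 genes the 4 late libraries did not overlap the 4 early ones in TPM; after scaling this held for 62.5% of all tested genes. Changes are differences of log2(scaled TPM + 1) with scaling by median ratios.

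Omp encodes olfactory marker protein, a small cytosolic protein of mature neurons that is used as their standard marker and shapes the time course of odor responses. The gene is a single exon on chromosome 7 at 98143359 to 98145502, minus strand. WT lysates 1 and 2 gave 3759.7 and 5393 TPM early against 2677 and 2978 TPM late. The cKO lysates gave 4436 and 4425 TPM early against 2836 and 2439 TPM late. The highest late library lay below the lowest early one, and WT early libraries differed more from each other than the cKO early libraries did. Omp fell by 0.83 log2 on average (SE 0.16, adjusted p = 0.00166 by limma), with a 95% interval of -1.19 to -0.47. It was lower in late polysomes in 4 of 4 lysates, by values from -0.58 to -1.03. Quantile normalization gave -0.56 (adjusted p = 0.0574) and so ended the call.

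Omp lies within the span of Capn5, a calpain gene on the same strand, with no exon base in common. Capn5 was 9.03 to 19.5 TPM over the libraries, far below Omp, and higher in late libraries, opposite to Omp. How the authors assigned reads to overlapping genes is not given in the sources used here.

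Stoml3 encodes a stomatin-like membrane protein of olfactory cilia, on chromosome 3 at 53488653 to 53508502. Its early values were 3222 and 3539 TPM in WT lysates 1 and 2, against late values of 2267 and 2286. The cKO lysates had early values of 3361 and 3018 TPM against late values of 2014 and 1848. As for Omp, every late library was below every early one, and the fall was 0.76 log2 (SE 0.12, adjusted p = 0.000458 by limma). Lysate values ran from -0.59 to -0.88. Quantile normalization left a smaller change, -0.40 (adjusted p = 0.0334).

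Of the other members of the stomatin family in the table, 3 of 4 were tested, with 1 higher and 1 lower in late polysomes. Stom, which encodes stomatin itself, rose by 0.85 log2 (SE 0.09, adjusted p = 7.38e-05 by limma) from a mean of 1010 TPM over the libraries. Stoml2, a mitochondrial member, changed by -0.80 (SE 0.06, adjusted p = 2.35e-05). Stoml3 thus moved the same way as Stoml2 and opposite to Stom.

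Cartpt encodes the precursor of cocaine- and amphetamine-regulated transcript peptides, on chromosome 13 at 99898489 to 99901091. WT lysates 1 and 2 had 459 and 488 TPM early against 208.1 and 194.6 late. The cKO lysates had 469.5 and 419 TPM early against 217 and 184 late. Late libraries held less than the early ones in every lysate. The fall was 1.30 log2 (SE 0.09, adjusted p = 1.88e-05 by limma), the largest fall among the 7 genes, with lysate values from -1.19 to -1.45. The annotation holds a further complete Cartpt reading frame of 390 nt, and reads of the 2 forms are not separated in the table.

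Genes of neuropeptide processing and dense-core vesicles went mostly the other way. Of 10 genes, all tested, 6 were higher and 1 lower in late polysomes, against 34.3% and 34.6% of all tested genes. Their median was 0.61 log2 against -0.01 over all genes. The change tracks coding length over all genes (below), and the lengths of these genes were not compared with that of Cartpt. Chga, a vesicle granin, rose by 1.36 (SE 0.10, adjusted p = 1.93e-05 by limma), and Cpe, a carboxypeptidase that trims peptide precursors, rose by 0.55 (SE 0.08, adjusted p = 0.000376). The 1 lower gene was Pcsk1n, an inhibitor of a prohormone convertase, at -0.71 (SE 0.14, adjusted p = 0.00192) and a mean of 6.94 TPM.

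Pde1c and Pde4a encode phosphodiesterases that hydrolyze cAMP. Pde1c, activated by calcium and calmodulin, is the enzyme of olfactory cilia, whereas Pde4a is found in the rest of the neuron. Pde1c lies on chromosome 6 at 56069804 to 56569103 and Pde4a on chromosome 9 at 21165714 to 21213248.

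Pde1c went from 42.4 to 75.5 TPM, early to late, in WT lysate 1 and from 41.8 to 72.9 in WT lysate 2. It went from 40.5 to 70.9 TPM in cKO lysate 1 and from 36.4 to 70.1 in cKO lysate 2. Late libraries stood clear of early ones and replicates lay close together. Pde1c rose by 0.72 log2 (SE 0.07, adjusted p = 3.65e-05 by limma), by 0.66 to 0.76 in single lysates.

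Pde4a went from 154 to 198 TPM, early to late, in WT lysate 1 and from 158 to 211 in WT lysate 2. It went from 144.1 to 182 TPM in cKO lysate 1 and from 144.2 to 199.8 in cKO lysate 2. The pools did not overlap here either, but the step was the smallest of the 7 genes. Pde4a rose by 0.28 log2 (SE 0.06, adjusted p = 0.00411 by limma), by 0.25 to 0.30 in single lysates.

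The 2 phosphodiesterases differed from each other in the same lysates. The change of Pde1c exceeded that of Pde4a by 0.46, 0.38, 0.46 and 0.46 log2 in WT lysates 1 and 2 and cKO lysates 1 and 2, a mean of 0.44 ± 0.04 (SD, n = 4). An exact permutation test of signs, two-sided, gave p = 0.125, the smallest that 4 lysates allow (adjusted p = 0.138 over 21 pairs of the 7 genes). Scaling between libraries cancels in this difference, apart from the pseudocount.

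Of 18 other phosphodiesterase genes, 17 were tested and 4 were higher and 4 lower in late polysomes, with a median of 0.04 log2. Pde6d, a small protein that carries lipid-modified proteins to cilia, was the most abundant at a mean of 238 TPM and changed by -1.19 (SE 0.11, adjusted p = 4.58e-05 by limma). Pde7b, next at 149 TPM, had a value of 0.04 (SE 0.07, adjusted p = 0.588). The largest rise was that of Pde11a, 1.17 (SE 0.18, adjusted p = 0.000437), at a mean of 4.01 TPM. The annotation lists 9 complete coding transcripts of Pde1c, of 1812 to 2301 nt, and 3 of Pde4a, of 1833 to 2535 nt, which the table does not separate.

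Carns1 encodes carnosine synthase, which joins histidine and beta-alanine into a dipeptide that is abundant in olfactory neurons. It lies on chromosome 19 at 4164324 to 4175479, minus strand. Carns1 measured 67.6 TPM early and 99.7 late in WT lysate 1, and 48.2 early and 94.99 late in WT lysate 2. The cKO lysates measured 60.0 and 41.7 TPM early against 96.4 and 85.5 late. In both genotypes replicate 2 was the lower early library, while late libraries lay closer together. Carns1 rose by 0.69 log2 (SE 0.14, adjusted p = 0.002 by limma), by 0.47 to 0.85 in single lysates. The annotation places an antisense gene, Gm17552, over 1825 exonic bases of Carns1. A processed transcript on the same strand as Carns1, AC109138.8, shares 1345 exonic bases with it. No row carries the symbol of either, and whether their reads were counted to Carns1 is not given in the sources used here.

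Genes that handle carnosine and its building blocks moved the same way where they passed. Of 9 genes, 8 were tested, of which 6 were higher and 0 lower in late polysomes, with a median of 0.74 log2. Among all tested genes 34.3% were higher and 34.6% lower, and the coding lengths of these genes were not compared with that of Carns1. Slc6a6, a transporter of taurine and beta-alanine and the most abundant at 196 TPM, rose by 0.73 (SE 0.09, adjusted p = 0.000121 by limma). Gadl1, a decarboxylase that can form beta-alanine, rose by 1.18 (SE 0.07, adjusted p = 1.88e-05).

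Umodl1 encodes a uromodulin-like protein with a zona pellucida domain, also named olfactorin, on chromosome 17 at 30954640 to 31010710. It measured 134 TPM early and 261.0 late in WT lysate 1, and 85.0 early and 247.5 late in WT lysate 2. The cKO lysates measured 123 and 54.9 TPM early against 241 and 179 late. The lowest late library was above the highest early one, and replicate 2 was below replicate 1 in each of the 4 groups. Umodl1 rose by 1.17 log2 (SE 0.25, adjusted p = 0.00273 by limma), the largest rise and the largest error among the 7 genes. Lysate values were 0.87 and 0.88 in lysates numbered 1 and 1.40 and 1.52 in lysates numbered 2, WT first.

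Umodl1 stood apart from other genes of its domain family in level. Of 7 such genes, 3 reached a mean of 1 TPM, and 2 of these were higher in late polysomes. The most abundant, Dmbt1, a secreted mucosal protein, had a mean of 38.7 TPM and a value of 0.42 (SE 0.31, adjusted p = 0.254 by limma), and Tectb, a component of the tectorial membrane of the inner ear, rose by 0.85 (SE 0.24, adjusted p = 0.0118) at a mean of 1.17 TPM.

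**Figure D2:**
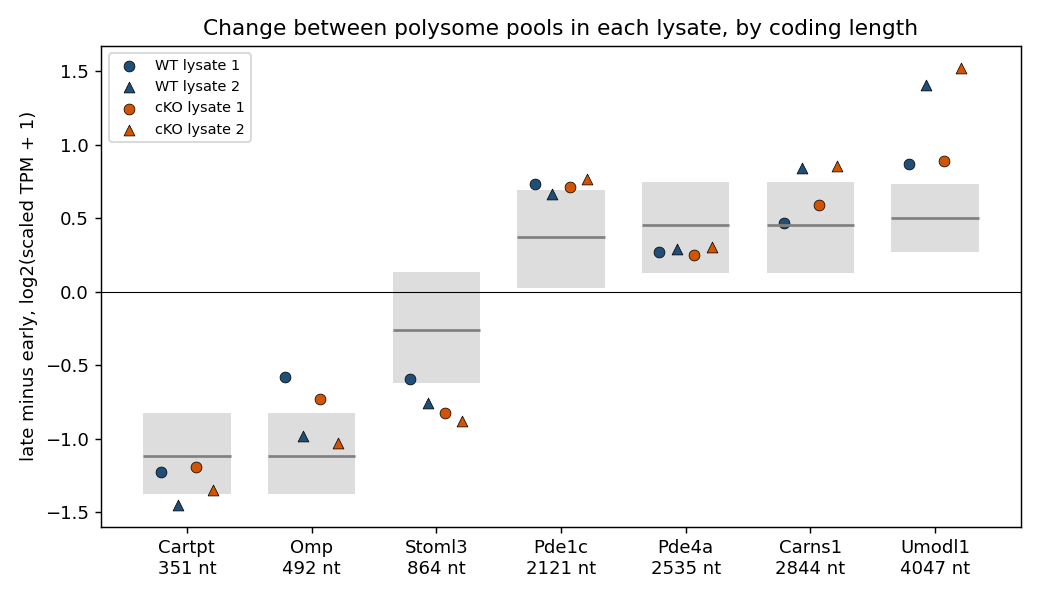
Late minus early difference in log2(scaled TPM + 1) (vertical axis) of each of the 7 genes in the 4 lysates, ordered by coding length. Grey bars span the first to the third quartile of tested genes in the same of 10 bins of coding length, with the median as a line. The 3 shortest genes lie below 0 and the 4 longest above 0 in all 4 lysates, Stoml3 has a mean below its bar and Umodl1 lies above its bar in each lysate.

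Within each genotype the directions were the same. In WT 7 of 7 genes passed, against 54.8% of all tested genes (27.1% higher, 27.7% lower). In cKO 7 of 7 passed, against 58.1% (28.9% higher, 29.2% lower). Cartpt changed by -1.34 (SE 0.12, adjusted p = 0.000382 by limma) in WT and -1.27 (SE 0.12, adjusted p = 0.000211) in cKO, and Pde1c by 0.70 (SE 0.09, adjusted p = 0.00067) and 0.74 (SE 0.09, adjusted p = 0.000381). Both passed in both genotypes whichever library was left out. So did Stoml3 in cKO, but quantile normalization ended that call (-0.49, adjusted p = 0.0674) and the one in WT (-0.32, adjusted p = 0.218). It also ended the calls of Omp in WT (-0.58, adjusted p = 0.161) and cKO (-0.54, adjusted p = 0.19), and without a filter on low values Omp in WT missed the threshold (adjusted p = 0.0773). Each of the other calls within a genotype was lost without at least 1 library. Leaving out WT early replicate 2 (the library with the conflicting label), WT late replicate 1 or WT late replicate 2 left 2, 3 and 2 of the WT calls. Leaving out cKO early replicate 2 left 4 of the cKO calls, and cKO late replicate 1 or cKO late replicate 2 left 5. The average over genotypes kept 7 of 7 calls without any 1 library. Paired by lysate, Pde4a in WT missed the threshold (adjusted p = 0.0507).

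The pairs of genes were then set against each other within lysates. Of 21 pairs, 19 differed in the same direction in all 4 lysates, each at the smallest exact permutation p of 0.125 (adjusted p = 0.138). Since 4 lysates allow no smaller p, the test could not call any pair, and the values are a description. In 12 of the 19 pairs a gene that rose was paired with one that fell, so their shared direction repeats the changes given above. The share among pairs of all tested genes was not counted. The 2 exceptions were Omp with Stoml3, where the difference (Omp minus Stoml3) averaged -0.07 ± 0.15 log2, and Pde1c with Carns1, where it averaged 0.03 ± 0.20 (SD, n = 4 lysates each). Cartpt fell further than Omp, by a mean of 0.47 ± 0.13, and Umodl1 rose further than Carns1, by a mean of 0.48 ± 0.17 (SD, n = 4 lysates each; the table codes these as Omp minus Cartpt and Carns1 minus Umodl1).

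Coding length was then set beside the changes. Across 14675 tested genes with a coding length, the change from early to late polysomes correlated with it at Spearman's rho = 0.636. This is a description, since genes share libraries and are not independent replicates. Of the 7 genes, those with coding sequences up to 864 nt fell and those from 2121 nt on rose. The order by length was not the order by change, since Pde4a, with a longer reading frame than Pde1c, rose less.

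Each gene was read against its bin when tested genes were split into 10 equal bins by coding length. Omp and Cartpt belong to the bin of the shortest genes, with a median of -1.12 log2 (quartiles -1.38 and -0.83). Cartpt at -1.30 and Omp at -0.83 lay on either side of that median, Omp above 74.7% of the genes in it. The bin spans 78 to 546 nt with a median of 408 nt. Omp, at 492 nt, is longer than that median and Cartpt, at 351 nt, shorter, so rank within the bin is not free of length. Stoml3, at -0.76, lay below the first quartile (-0.62) of its bin, whose median was -0.26. Pde1c (0.72) lay just above the third quartile (0.69) of its bin, whose median was 0.37. Pde4a (0.28) and Carns1 (0.69) fell within the quartiles (0.12 and 0.74) of a bin with a median of 0.45. Umodl1, at 1.17, was above 96.9% of the genes in the bin of the longest, whose median was 0.50. Its bin rests on the principal transcript. The annotation lists 6 complete coding transcripts of Umodl1, of 213 to 4047 nt, which the table does not separate. Over all tested genes, 3.85% had a lower value than Cartpt and 98.2% a lower value than Umodl1.

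**Figure D3:**
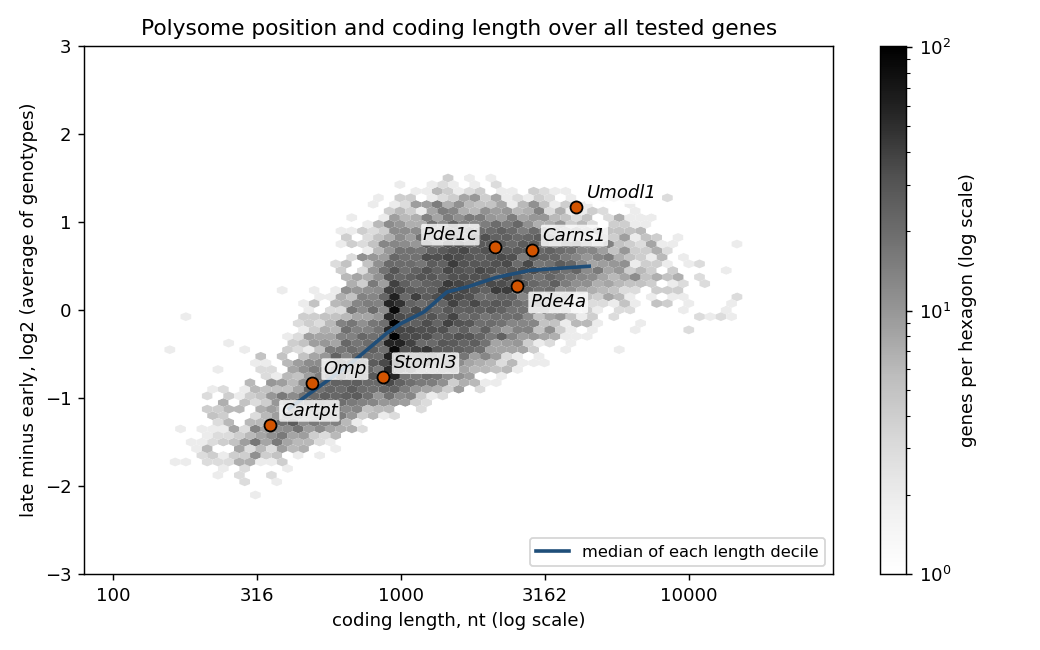
Late minus early change averaged over genotypes (vertical axis, log2) against coding length (horizontal axis, nt, log scale) for 14675 tested genes, shaded by genes per hexagon. The line joins medians of 10 equal bins of length, and points are the 7 genes. Omp, Cartpt and Pde4a lie near the line, Stoml3 0.50 below its bin's median and Umodl1 0.67 above.

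Other genes of the mature neuron also split by direction. Of 10 further mature neuron genes, all tested, 7 were higher and 3 lower in late polysomes, with a median of 0.45 log2. S100a5, a small calcium-binding protein and the most abundant at 3660 TPM, changed by -1.72 (SE 0.16, adjusted p = 4.18e-05 by limma). Gfy, a Golgi protein of olfactory neurons at 2570 TPM, rose by 1.23 (SE 0.13, adjusted p = 5.86e-05). Of 11 genes of the transduction cascade, 8 were higher and 2 lower, with a median of 0.61. All tested genes split too, 34.3% higher and 34.6% lower. The coding lengths of the genes in these 2 lists were not compared with those of the 7. The extremes of the cascade were Gng13, a short G-protein gamma subunit, at -1.73 (SE 0.14, adjusted p = 2.71e-05 by limma), and Adcy3, the olfactory adenylyl cyclase, at 1.58 (SE 0.12, adjusted p = 2.17e-05). Gnb1, a G-protein beta subunit and the most abundant of the cascade genes at 2020 TPM, changed by -0.61 (SE 0.11, adjusted p = 0.00104 by limma).

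The profile of Omp over the 8 libraries was most like those of Gal3st3, Xpa, Szrd1, Tprkb and Trp53inp2 among 11012 genes with a mean scaled TPM of at least 10. The root mean square distance between centred log2 profiles was 0.0664, 0.0879, 0.0895, 0.0897 and 0.0905. For Stoml3, the nearest of the other 6 mature neuron genes, it was 0.128, and for Umodl1, the farthest, 1.09. How many of the 11012 genes lay nearer to Omp than Stoml3 was not counted. The 5 genes fell by 0.74 to 0.86 log2 from early to late polysomes. That fall follows from picking them for likeness to Omp in these same libraries, and is not a separate result. Their mean levels were 10.6 to 108 TPM against 3618 for Omp.

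The comparison of genotypes asked whether loss of Mex3a changes the amount of each mRNA on polysomes. None of the 7 genes passed in early polysomes, in late polysomes or on the mean of early and late values of each lysate by limma. At an unadjusted p under 0.05 there were 0 of 7 in each, against 6.65% of all tested genes in early polysomes, 9.36% in late and 11.3% on lysate means. Voom on inferred reads called 0 of 7. Few genes of the whole table passed either, 0.0435% among the early libraries (0.0186% higher, 0.0248% lower), 0.0124% among the late ones and 0.00621% for lysate means. The medians over the 7 genes were -0.06 log2 in each of the 3 comparisons, against 0.01, -0.00066 and 0.0015 over all tested genes.

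In deposited TPM both cKO libraries lay below both WT libraries for Pde1c in both pools, for Pde4a in the early pool and for Stoml3 and Umodl1 in the late pool. The libraries of the genotypes overlapped for the other genes and pools. Over all tested genes the median in deposited TPM was itself below 0, at -0.0475 log2 in early and -0.0368 in late polysomes (cKO minus WT). After scaling, the genotypes overlapped in the late pool for Pde1c (71.4 and 68.0 in WT, 69.6 and 66.4 in cKO) and Umodl1 (246.6 and 230.8, 236.8 and 169.4). None of the separated genes passed by limma in the pool concerned. The adjusted p was 0.923 (early) and 0.938 (late) for Pde1c and 0.941 for Pde4a in early polysomes. In late polysomes it was 0.732 for Stoml3 and 0.857 for Umodl1. The share of all tested genes without overlap between genotypes was not counted. These orders of libraries are therefore a description, and no effect of genotype is read from them.

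The intervals show what size of change could have gone unseen. On lysate means Omp differed by -0.02 log2 (cKO minus WT, SE 0.16, adjusted p = 0.981 by limma), with a 95% interval of -0.40 to 0.37. In percent of WT this interval runs from -24.1 to 29.0. The intervals were narrowest for Pde4a (-0.22 to 0.11) and Pde1c (-0.23 to 0.12), and similar for Cartpt (-0.22 to 0.22). For Stoml3 the interval was -0.40 to 0.17 and for Carns1 -0.45 to 0.26.

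Umodl1 had the lowest value and the widest interval. On lysate means it differed by -0.29 log2 (SE 0.26, adjusted p = 0.708 by limma), with an interval of -0.93 to 0.36. In the early groups the 2 libraries differed more than that, by -0.63 in WT and -1.12 in cKO on the log2 scale (replicate 2 minus replicate 1). Carns1 showed the same order, at -0.46 and -0.48, and Omp the opposite one in WT early, at 0.54. Pde4a replicates differed by 0.03 to 0.08 in the 4 groups. Without cKO lysate 2 the Umodl1 value was 0.11, and it ranged from -0.68 to 0.11 over the lysates left out.

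**Figure D4:**
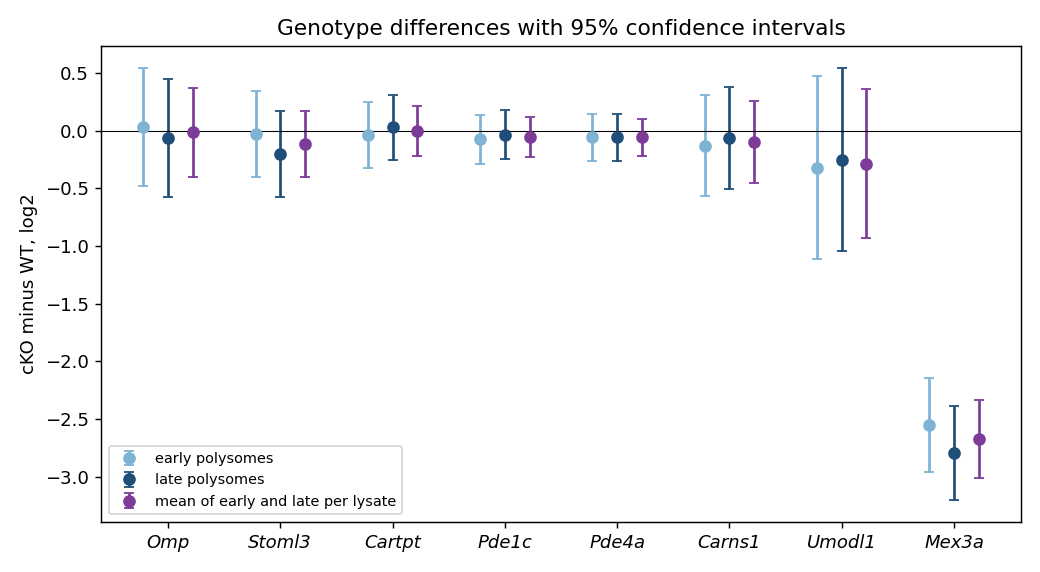
Difference between cKO and WT (vertical axis, log2) for the 7 genes and Mex3a in early polysomes, late polysomes and on lysate means. Points are limma estimates and bars their 95% intervals, which span 0 for each of the 7 genes, while those of Mex3a lie between -3.20 and -2.15.

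The interaction asked whether the step from early to late polysomes differs between genotypes. None of the 7 genes passed by limma (0.00621% of all tested genes did), and 0 of 7 had an unadjusted p under 0.05, against 2.85% of all tested genes. The value (step in cKO minus step in WT) was -0.10 for Omp (95% interval -0.82 to 0.63), -0.17 for Stoml3 (-0.70 to 0.36), 0.07 for Cartpt (-0.33 to 0.47) and 0.04 for Pde1c (-0.26 to 0.34). For Pde4a it was -0.0024 (-0.29 to 0.28), for Carns1 0.07 (-0.56 to 0.69) and for Umodl1 0.07 (-1.05 to 1.19). The adjusted p was 1.0 for each. An upward shift in Umodl1 of the size of its own step between pools would lie within that interval.

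Ratios to Omp, which need no scaling between libraries, gave a similar picture for Pde4a and Cartpt. They also carry the fall of Omp itself, so they are not a separate view of either gene. Pde4a was 2.93% to 4.10% of Omp in the 4 early libraries and 6.41% to 8.20% in the 4 late ones. Cartpt was 9.05% to 12.2% of Omp in early and 6.53% to 7.77% in late libraries. For both genes the pools were separate, while the WT and cKO libraries of each pool overlapped. For Stoml3, which fell about as far as Omp, the pools overlapped, at 65.6% to 85.7% of Omp in early and 71.0% to 84.7% in late libraries.

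Markers of other cell types were read beside these values, since fewer cells of a type and less RNA per cell cannot be told apart in bulk tissue. The 10 further mature neuron genes summed to 8560 to 8960 TPM in WT early and 8190 to 8270 in cKO early libraries, and to 7380 to 7640 in WT late and 6860 to 7110 in cKO late libraries. None of the 10 passed between genotypes, and their median on lysate means was -0.13 log2. The 8 immature neuron markers summed to 2420 to 2450 TPM in the WT early pool against 2120 to 2170 for cKO, and to 3290 to 3400 TPM in the WT late pool against 2820 to 3010 for cKO. The 7 sustentacular (supporting) cell markers summed to 6130 to 6410 in WT early, 5890 to 6760 in cKO early, 8840 to 9650 in WT late and 9610 to 10900 in cKO late libraries. Of 6 nasal gland markers 5 were in the table, summing to 5190 to 6700 in WT early, 4260 to 6550 in cKO early, 10800 to 12300 in WT late and 13900 to 14000 in cKO late libraries. The 11 transduction genes summed to 6060 to 6520 TPM in the WT early pool against 5810 to 5880 for cKO, and to 5610 to 5830 TPM in the WT late pool against 5210 to 5400 for cKO. The 5 microvillous cell and ionocyte markers summed to 144 to 178 TPM in WT and 142 to 168 in cKO early libraries, and to 319 to 326 in WT and 344 to 374 in cKO late libraries. Markers of olfactory ensheathing glia, 5 in all, summed to 649 to 820 and 683 to 833 TPM in the WT pools, early then late, and to 571 to 634 and 577 to 587 in the cKO pools. Most of that sum was Fabp7, at a mean of 543 TPM and -0.34 log2 on lysate means (cKO minus WT, SE 0.13, adjusted p = 0.417 by limma), whereas Sox10 had a value of 0.21 (SE 0.07, adjusted p = 0.402). Of 6 blood and immune markers 4 were in the table, with sums of 191 to 192 and 142 to 159 TPM in the WT pools and of 233 to 250 and 182 to 186 in the cKO pools. In deposited TPM, sums of mature and immature neuron genes, transduction genes and glial markers were thus lower in both cKO pools, without overlap between genotypes. Those of blood and immune cells were higher in both, and those of glands and of microvillous cells and ionocytes higher in cKO late libraries, also without overlap. Markers of globose basal cells and progenitors summed to 588 TPM in WT early and 593 to 639 in cKO early libraries, and overlapped in the late pool. Sums of horizontal basal cell markers overlapped in both pools. The 7 genes themselves overlapped in the early pool but not in the late one (5790 to 6080 TPM in WT, 5010 to 5660 in cKO). The sums were not scaled, and the median of all tested genes in deposited TPM was below 0 too (cKO minus WT, -0.0475 log2 early, -0.0368 late). Sums of the 18 other phosphodiesterase genes were also lower in both cKO pools, while those of carnosine genes overlapped. The part of these sums in the values of the 7 genes was not tested. No marker of these lists found in the table was at 0 in all libraries.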

How the data were processed

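The authors deposited 1 table of TPM, with 1 column per library, each summing to 1000000. Per the submitters' processing notes, FastQC, cutadapt, STAR and DESeq2 were used with the build mm10, without stated roles; the counting method and annotation are not given in the sources used here. Per the labels' protocols, libraries came from a stranded low-input total RNA kit, and replicates were not pooled. The Cre line is not reported here.

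Whole reads were inferred from TPM steps for each of the 19783 genes (100.0%) with values above 0 in 2 or more libraries, at a tolerance of 0.001. On simulated libraries, 99.6% of 19544 genes came back exactly. Median-ratio factors (0.94 to 1.07) set the libraries to 1 scale. The test, limma 3.58.1 under R 4.3.3, used log2(scaled TPM + 1) of the 16097 genes with a mean TPM of at least 1. All 8 libraries were fitted together with a mean-variance trend. Lysate means were fitted apart. P-values were two-sided and Benjamini-Hochberg adjusted over all genes, and 0.05 was the threshold. In simulated libraries, 199 of the tested genes were changed 3-fold. Of these, 197 were recovered between pools (15967 tested, 12 false calls). In early polysomes 188 were recovered (15960 tested, 18 false calls) and in late 187 (15966, 25). On lysate means 196 were recovered (15964, 31) and in the interaction 151 (15949, 19). Simulated reads had the same dispersion in every gene and no difference between lysates. With so many genes changed, the adjusted threshold is also easier to pass than where few genes pass, as between genotypes here. The shares recovered therefore do not measure what the real libraries could find.

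The 7 genes and the gene lists were chosen with earlier results of these data known. Named genes were the 7, Mex3a, up to 4 per list (the 2 most abundant and the largest rise and fall past the threshold between pools), the 5 most like Omp, and genes overlapping a member. Not every list has its named genes in the text. Genes overlapping Pde1c or Umodl1 share no exon base with them and are left out. Coding lengths and sequences are those of the APPRIS principal transcript in GENCODE M21. Of 2 date-like symbols, each stands for 2 rows, which were kept apart. Alternatives were other pseudocounts (0.1, 0.5), filters, scalings, leaving out libraries, blocks, and voom on inferred reads. Early and late libraries of a lysate share its name in the library names; their deviations from group means correlated at 0.0863 in WT and 0.0502 in cKO across genes. Figures were drawn with matplotlib 3.10.9.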

Additional observations from a re-analysis of the deposited data

How the results depend on the processing

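Late against early, averaged over genotypes, kept 7 of 7 calls in each alternative but quantile normalization, which left 6 (Omp at -0.56 log2, adjusted p = 0.0574). Fits without 1 library gave 7 calls on average, 2 to 7 in WT and 4 to 7 in cKO. The replicate block on the lysate gave 7, 6 and 7 calls. TPM as deposited moved the median change of all genes to 0.0871, and in cKO from -0.0055 to 0.0999. It left all 7 directions.

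Between genotypes and in the interaction, 0 of 7 genes passed in each alternative, the replicate block on the number included, which gave 85 genes of the whole table on lysate means against 1 (3420 unadjusted against 1823). No label says that a number marks a shared batch; same-numbered WT and cKO libraries deviated from their group means with a correlation of 0.332 (early) and 0.143 (late) across genes. Small values changed sign. Omp in early polysomes was -0.023 with TPM as deposited and -0.18 with quantile normalization, and Cartpt in late polysomes -0.0089 with TPM as deposited. On lysate means voom gave 0.039 for Omp and 0.040 for Cartpt. The interaction became 0.016 (TPM as deposited) and 0.013 (quantile) for Pde4a, and 0.049 (quantile) for Omp. The cause was not tested. Without 1 library, values in early polysomes ran from -0.24 to 0.30 for Omp, -0.10 to 0.051 for Stoml3, -0.37 to 0.11 for Carns1, -0.88 to 0.24 for Umodl1 and -0.10 to 0.030 for Cartpt. In late polysomes it gave -0.20 to 0.072 for Omp, -0.17 to 0.050 for Carns1 and -0.11 to 0.17 for Cartpt. On lysate means it gave -0.18 to 0.15 for Omp, -0.27 to 0.082 for Carns1, -0.68 to 0.11 for Umodl1 and -0.11 to 0.10 for Cartpt. In the interaction it gave -0.37 to 0.17 for Omp, -0.020 to 0.099 for Pde1c, -0.043 to 0.039 for Pde4a, -0.17 to 0.31 for Carns1, -0.49 to 0.63 for Umodl1, -0.077 to 0.21 for Cartpt and -0.50 to 0.017 for Mex3a.

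Counts over the whole table moved too. In early polysomes 7 became 11 without a filter, 4 at a mean TPM of at least 5, 12 with voom, 0 with only the 4 libraries (1043 unadjusted) and 0 to 9 without 1 library. In late polysomes 2 became 1 with a pseudocount of 0.1, at a mean TPM of at least 5 and with only the 4 libraries, 4 without a filter, 15 with voom and 0 to 13 without 1 library. On lysate means 1 became 0 without a filter (2115 unadjusted), 58 with voom and 1 to 10 without a lysate. The interaction count of 1 became 6 without a filter, 0 at a mean TPM of at least 5 (324 unadjusted) and with voom (396), and 1 to 7 without 1 library. Within WT, 8826 genes late against early became 5874 without WT early replicate 2.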
